A study of Mus musculus with 12 samples.

Results

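The comparison described here set fibroblasts lacking the telomerase reverse transcriptase gene (mTERT KO) against wild-type fibroblasts of the same line (mTERT WT). It held 6 of the 12 arrays of the series, chosen by their titles: mTERT KO G1 cultures 1 to 3 and mTERT WT cultures 1 to 3, with 1 array per culture. The cells were mouse embryonic fibroblasts, connective tissue cells grown out of embryos of stage E12.5 to E14.5, in days of gestation. All 6 cultures came from male embryos labelled C57BL/6J, received no treatment, were grown in serum-containing medium and gave total RNA at passage 5. The knockout embryos were of the first generation without the gene, written G1, so that their parents still carried it. Per the series' design text the series held 3 separate sets, with wild type and knockout of a set being littermates, and cultures with the same number were taken as a pair. A pair shares a litter if the numbers follow the sets, and each culture stands for its own embryo. The labels give neither the allele nor the part of the gene that was removed. The other 6 arrays of the series, 3 mTR KO G1 and 3 mTR WT, lack or carry the telomerase RNA gene and are used below only for comparison with the mTERT line.

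Telomerase adds repeats to chromosome ends. Its catalytic protein, TERT, copies a stretch of its RNA subunit, called TR in the labels and Terc in gene nomenclature, and dyskerin with its partners holds that RNA. In mice lacking telomerase, telomeres shorten over successive generations, and the first generation still has long telomeres. Mouse fibroblasts, unlike most adult human cells, keep some Tert expression. Tert lies on chromosome 13 in the RefSeq annotation of GRCm38.p6. The 250 bases before its start site are shown because Tert is the gene removed, with capitals marking GC boxes (GGGCGG, searched on both strands).
Tert, chr13:73626661-73626910, + strand: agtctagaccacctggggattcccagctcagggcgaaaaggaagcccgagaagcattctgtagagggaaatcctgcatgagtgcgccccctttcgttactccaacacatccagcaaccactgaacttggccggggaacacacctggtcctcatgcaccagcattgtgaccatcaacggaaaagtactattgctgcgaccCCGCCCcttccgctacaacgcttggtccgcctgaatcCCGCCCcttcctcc
This window held 2 GC boxes, and neither the E-box, searched as CACGTG, nor the TATA element, searched on both strands as TATAAA. Of 32851 RefSeq promoter windows of this length, 32.74% held a GC box, 6.02% an E-box and 12.37% a TATA element.

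Tert signal was lower in every knockout culture. On the log2 scale of the deposited values, Tert stood at 5.72, 5.74 and 5.51 in mTERT WT cultures 1 to 3 and at 4.99, 4.83 and 4.75 in mTERT KO cultures 1 to 3. The groups did not overlap. As a background level served 1035 probe sets of olfactory receptors, which fibroblasts should not express: their 95th percentile was 4.99 over the 6 arrays (4.93 to 5.09 per array). Knockout Tert signal thus lay below background in cultures 2 and 3 and just above its own array's background in culture 1, while every wild-type culture lay above it. Within pairs the difference was −0.73, −0.90 and −0.75, a mean of −0.79 ± 0.07 (limma's moderated standard error, n = 3 pairs). Every value after ± in this text is such an error, which combines a probe set's own residual spread with a prior variance from all probe sets. Where the pairs disagree strongly, it is smaller than the spread of the 3 differences alone would give. A signal below background has no measured distance from it, so the difference was also taken with such signals raised to their own array's background, which makes it a bound: wild-type Tert was at least 1.56-fold higher (0.64 on the log2 scale). Limma's moderated test over all 28853 probe sets gave Tert an adjusted p of 0.101, which missed the 5% threshold (range over the alternatives 0.00322 to 1). An exact two-sided sign-flip test of the 3 pair differences gave p = 0.25, the smallest that 3 pairs allow. Whether the probes of this set lie inside the removed part is not known from the labels. Terc, the RNA subunit, was below background in all 6 cultures (4.67, 4.82 and 4.94 in wild type, 4.77, 4.64 and 4.86 in knockout), with a difference of −0.05 ± 0.08.

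All 15 fibroblast markers checked, among them Dcn and Pdgfra, lay above background. So did all 16 macrophage markers, including Lyz2 (11.46, 12.47 and 12.86 in wild type, 11.31, 12.39 and 12.54 in knockout). The mean over the macrophage markers was 7.60, 8.78 and 9.24 in wild type and 7.29, 9.00 and 8.91 in knockout. Markers of endothelium (2 of 13 above background), erythroid cells (1 of 7) mast cells (0 of 6) and cartilage and bone (2 of 12) were mostly at background. Markers of other types were in part above it: neural and glial 8 of 16, skeletal muscle 7 of 16, adipocyte 5 of 9, epithelial 5 of 13 and tendon 4 of 5. In such bulk cultures, fewer cells of a type and less RNA per cell cannot be told apart. The 6 arrays were alike in distribution, with medians from 5.46 to 5.50 and correlations from 0.987 to 0.997 between arrays.

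The knockout was compared with wild type within pairs, which asks what differed with loss of TERT inside a litter if same-numbered cultures are littermates. No probe set passed the 5% false discovery rate (limma, Benjamini-Hochberg, 0 of 28853, 0% called). The lowest adjusted p was 0.101. At an unadjusted p below 0.05, 1604 probe sets (5.56%) were counted, 772 higher in knockout (2.68%) and 832 lower (2.88%). A difference in the same direction in all 3 pairs was seen for 7242 probe sets, or 25.1%, with 3639 higher (12.61%) and 3603 lower (12.49%). Values of the groups did not overlap for 831 higher (2.88%) and 892 lower (3.09%) probe sets. Few differences were large in every pair: 6 probe sets were over 1.5-fold higher in all 3 pairs (0.0208%), those of Hoxd13, Lum, Rtl3, C130021I20Rik, Scn7a and Gfra1, and 4 were over 1.5-fold lower (0.0139%), those of Stmn2, Alx1, Tert and Ccdc68. In a single pair, 165 probe sets were over 1.5-fold higher (0.572%) and 151 lower (0.523%) in pair 1, against 114 (0.395%) and 101 (0.35%) in pair 2 and 82 (0.284%) and 109 (0.378%) in pair 3.

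The pairs differed in what else moved. Over the 17320 probe sets above background, the pair differences of pairs 2 and 3 correlated at r = 0.236, those of pairs 1 and 2 at 0.024 and those of pairs 1 and 3 at 0.049, a description across probe sets, which share arrays and are not independent. The standard deviation of the differences was 0.200 in pair 1, 0.181 in pair 2 and 0.185 in pair 3. Leaving pair 1 out gave 229 calls in the same limma test, 91 higher (0.315%) and 138 lower (0.478%), and 114 of the 229 pointed the other way in pair 1. Of the lower calls 50 were probe sets with no gene symbol and an identical profile (0.70, −0.55 and −0.42 by pair), a single signal repeated in the table. Counting each profile once left 179 calls, 90 higher and 89 lower, of which 65 pointed the other way in pair 1. Leaving out pair 2 or pair 3 gave 0 calls each. When the prior variance was allowed to follow the signal level and was fitted robustly (limma's trend and robust options), 34 probe sets passed (0.118%), 16 higher (0.0555%) and 18 lower (0.0624%). All 34 had the same direction in all 3 pairs, which selection by a test of these pair differences favours. Groups did not overlap for 11, and 32 carried a single gene symbol, naming 31 genes. They are called the variance-trend calls below.

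**Figure D1:**
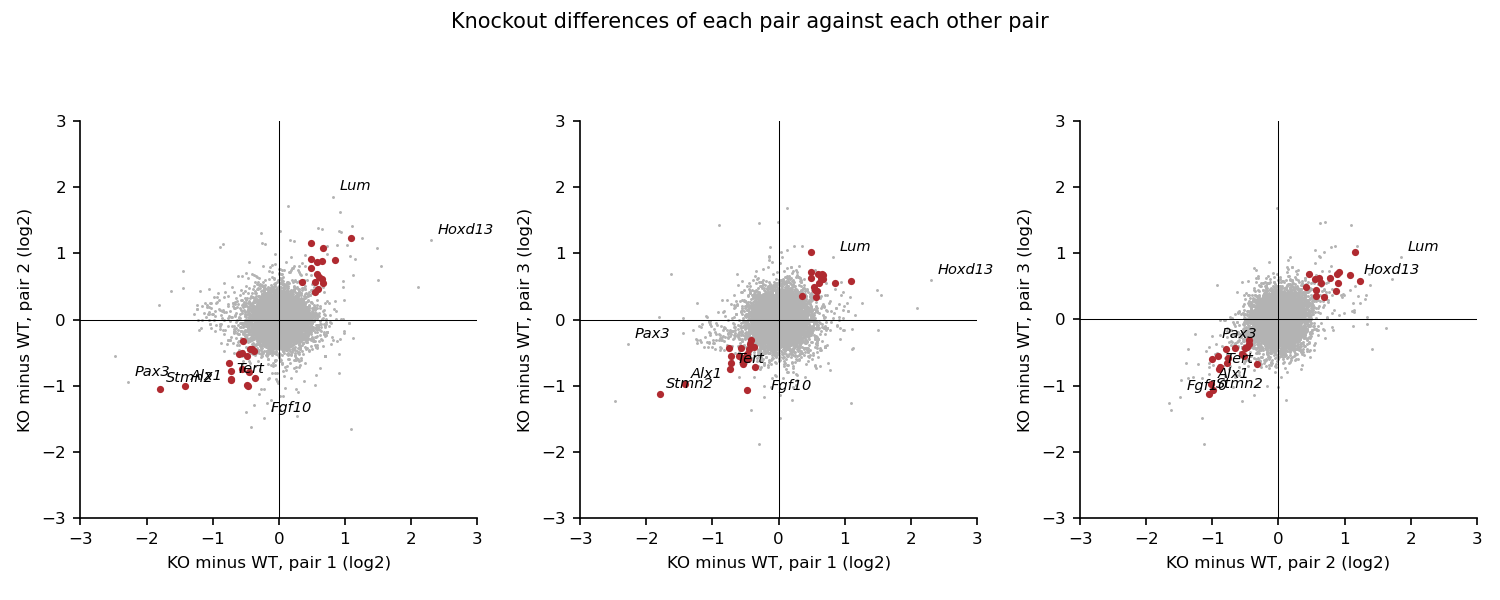
Knockout minus wild-type difference (log2) of each probe set above background in 1 pair against the same in another pair (grey), with the 34 variance-trend calls in red and 7 genes named. The cloud is nearly round for the panels with pair 1 (r = 0.024 and 0.049) and tilted for pairs 2 and 3 (r = 0.236). Every red point lies in a quadrant of equal signs, which selection by a test of these differences favours.

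Among the genes lower in knockout, Alx1, a homeobox factor of facial and limb mesenchyme, shared the lowest adjusted p with Tert and Ccdc68. Alx1 stood at 7.36, 6.34 and 6.35 in wild type and 5.93, 5.33 and 5.38 in knockout, a difference of −1.14 ± 0.10 (2.20-fold, limma adjusted p = 0.101). Every knockout culture lay below every wild-type culture. Stmn2, a stathmin that regulates microtubules in neurons, stood at 7.05, 7.85 and 7.38 in wild type and 5.25, 6.80 and 6.24 in knockout, a difference of −1.33 ± 0.14. Its groups did not overlap either, and the gap was widest in pair 1. Ccdc68, a coiled-coil protein of the centriole, stood at 7.41, 8.12 and 8.29 in wild type and 6.69, 7.34 and 7.63 in knockout. The pairs moved in parallel (−0.72 ± 0.07), though the groups overlapped because pair 1 was low as a whole. Piezo2, a stretch-gated ion channel, stood at 8.91, 8.91 and 9.26 in wild type and 8.36, 8.16 and 8.68 in knockout, a difference of −0.63 ± 0.07 without overlap. Serpinb6b, a protease inhibitor of the serpin family, differed by −0.73 ± 0.09, and Prkar2b, a regulatory subunit of protein kinase A, by −0.52 ± 0.07. Map3k7cl (−0.85 ± 0.12), the DNA-binding inhibitor Id4 (−0.50 ± 0.07), Plac8 (−0.66 ± 0.10) and the LIM protein Crip2 (−0.56 ± 0.09) were lower in all 3 pairs too. Each of these 10 genes was a variance-trend call, with adjusted p from 0.00656 for Alx1 to 0.0405 for Id4. Krt18, a keratin of simple epithelia, was also among the 12 lowest test statistics (−0.45 ± 0.07) and was not a variance-trend call (adjusted p = 0.132).

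Among the genes higher in knockout, Gfra1, the co-receptor for glial cell line-derived neurotrophic factor, differed by nearly the same amount in each pair. It stood at 7.80, 6.81 and 7.18 in wild type and 8.45, 7.42 and 7.81 in knockout, with pair differences of 0.65, 0.61 and 0.63. Wild-type culture 1 lay above knockout culture 2, so the groups overlapped. Scn7a, a member of the sodium channel family, stood at 4.97, 5.49 and 4.91 in wild type and 5.63, 6.38 and 5.60 in knockout, a difference of 0.75 ± 0.08 without overlap (at least 0.66, since wild-type cultures 1 and 3 lay below background). Tsen15, a subunit of the endonuclease that splices transfer RNAs, stood at 6.63, 6.54 and 6.66 in wild type and 7.29, 7.09 and 7.27 in knockout. Its wild-type cultures lay close together and its knockout cultures were all higher (0.61 ± 0.07). Zic1, a zinc-finger factor of neural tube and somites, stood at 5.52, 5.21 and 5.51 in wild type and 6.01, 6.37 and 6.53 in knockout, a difference of 0.89 ± 0.12 without overlap. The list also held matrix and matrix-modifying genes: Podn, a leucine-rich proteoglycan (0.52 ± 0.07), Dpt, dermatopontin (0.63 ± 0.08), Spock3, a testican (0.60 ± 0.07, at least 0.42 with wild-type culture 1 at background), and Cpxm2, of the carboxypeptidase family (0.97 ± 0.12). Moxd1, related to dopamine beta-hydroxylase, was higher by 0.58 ± 0.07 and the noncoding C130021I20Rik by 0.81 ± 0.10 (at least 0.64, likewise). All these genes were variance-trend calls, with adjusted p from 0.0108 for Gfra1 to 0.0401 for Moxd1. Further calls, chosen after their values were seen, were the gap junction gene Gja1 (0.42 ± 0.08), the cysteine dioxygenase Cdo1 (0.63 ± 0.09), Itm2a (0.53 ± 0.09) and the hyaluronan-binding Tnfaip6 (0.48 ± 0.07). When only the 21789 probe sets with 1 gene symbol were tested, limma called 6: Gfra1 and Scn7a higher, and Alx1, Ccdc68, Stmn2 and Tert lower.

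**Figure D2:**
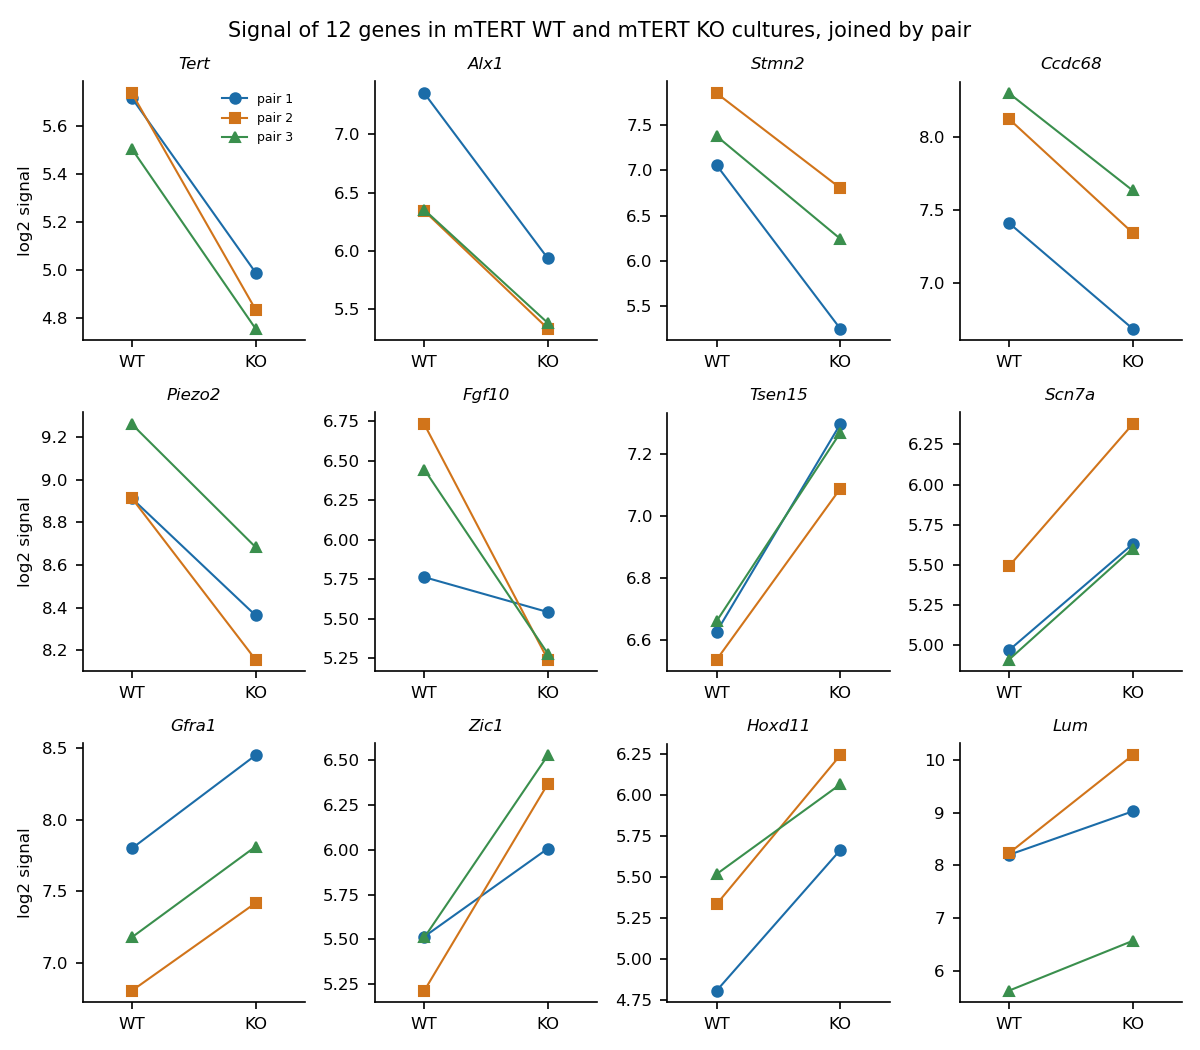
Log2 signal of 12 genes in wild-type (WT) and knockout (KO) cultures, with 1 point per culture and a line joining each pair; each panel has its own axis. Tert, Alx1, Stmn2, Ccdc68, Piezo2 and Fgf10 are lower in KO in every pair and Tsen15, Scn7a, Gfra1, Zic1, Hoxd11 and Lum higher, with Fgf10 small in pair 1.

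The Hox genes, which encode homeobox factors that set position along the body axis and the limb, were described as a family because they mark where in the embryo a fibroblast came from. Of 37 measured members, 11 were higher and 7 lower in all 3 pairs (29.7% and 18.9%, against 12.61% and 12.49% of all probe sets), and the list's median difference was −0.04, against 0.00 over all probe sets. The clusters were not alike. In the Hoxd cluster, 8 of 9 measured genes were higher in all 3 pairs and none was lower, with a median of 0.55. The exception, Hoxd1, was at background. Hoxd13, the most distal limb member, stood at 4.99, 6.67 and 6.65 in wild type and 7.29, 7.87 and 7.25 in knockout. All knockout cultures lay above all wild-type cultures, and the differences were 2.31, 1.20 and 0.60 in pairs 1 to 3 (mean 1.37 ± 0.27, limma adjusted p = 0.405). Wild-type culture 1 lay below its background, so the pair 1 difference is a bound of at least 2.25 and the mean one of at least 1.35. Hoxd11 stood at 4.81, 5.33 and 5.52 in wild type and 5.66, 6.24 and 6.06 in knockout (0.77 ± 0.09, at least 0.69 with wild-type culture 1 at background), again without overlap. Hoxd8 stood at 7.65, 6.44 and 5.97 in wild type and 8.13, 7.35 and 6.69 in knockout (0.70 ± 0.09). Hoxd11 and Hoxd8 were variance-trend calls, at adjusted p = 0.0188. Hoxd10 was higher by 0.71 ± 0.18, though by little in pair 3. Hoxd12 was higher by 0.55 ± 0.09 with all wild-type cultures at background (at least 0.14), and Hoxd9, Hoxd4 and Hoxd3 by 0.27, 0.23 and 0.23. The 250 bases before the start sites of 3 of these genes are shown because these cluster members differed in the same direction; Hoxd11 has 2 annotated starts. Capitals mark GC boxes, the E-box and the TATA element, with overlapping matches counted.
Hoxd13, chr2:74667975-74668224, + strand: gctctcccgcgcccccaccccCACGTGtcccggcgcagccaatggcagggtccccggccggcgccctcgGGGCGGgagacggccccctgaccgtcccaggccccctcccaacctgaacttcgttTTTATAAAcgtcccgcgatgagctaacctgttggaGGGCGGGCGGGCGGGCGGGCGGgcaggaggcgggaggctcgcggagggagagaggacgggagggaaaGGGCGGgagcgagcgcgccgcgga
Hoxd11, chr2:74679308-74679557, + strand: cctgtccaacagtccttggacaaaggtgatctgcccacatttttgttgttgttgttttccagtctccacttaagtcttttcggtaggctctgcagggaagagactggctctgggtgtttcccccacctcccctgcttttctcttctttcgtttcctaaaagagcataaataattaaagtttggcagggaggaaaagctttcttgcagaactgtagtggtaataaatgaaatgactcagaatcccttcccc
Hoxd11, chr2:74682073-74682322, + strand: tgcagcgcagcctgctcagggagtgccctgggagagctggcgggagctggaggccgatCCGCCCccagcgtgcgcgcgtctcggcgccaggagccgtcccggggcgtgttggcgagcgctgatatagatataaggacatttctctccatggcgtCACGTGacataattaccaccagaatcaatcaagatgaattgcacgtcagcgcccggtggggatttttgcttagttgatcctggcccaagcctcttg
Hoxd8, chr2:74704365-74704614, + strand: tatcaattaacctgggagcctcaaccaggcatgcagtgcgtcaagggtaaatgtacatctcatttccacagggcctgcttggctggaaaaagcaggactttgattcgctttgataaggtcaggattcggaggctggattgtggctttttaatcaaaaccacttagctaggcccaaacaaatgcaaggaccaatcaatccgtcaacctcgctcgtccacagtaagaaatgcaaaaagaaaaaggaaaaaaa
Hoxd13 held 7 GC box matches, 1 E-box and 2 overlapping TATA matches. The window of the upstream Hoxd11 start and that of Hoxd8 held none of the 3 motifs, and that of the downstream Hoxd11 start held 1 GC box and 1 E-box. In the Hoxa cluster the distal Hoxa13 (0.46) and Hoxa10 (0.26) were higher in all 3 pairs, and the anterior Hoxa5 (−0.67 ± 0.18), Hoxa4 (−0.31) and Hoxa3 (−0.29, at background) were lower. Hoxc10, a gene of the hindlimb and lumbar region, stood at 5.01, 5.71 and 6.57 in wild type and 4.71, 4.59 and 4.68 in knockout, a difference of −1.10 ± 0.25. It was at background in every knockout culture and in wild-type culture 1, so pair 1 has no measured difference. Wild type was higher by at least 0.70 in pair 2 and at least 1.53 in pair 3, where the gap was largest. Hoxc9 was lower by 0.34, and the 9 Hoxb genes stayed between −0.19 and 0.16.

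**Figure D3:**
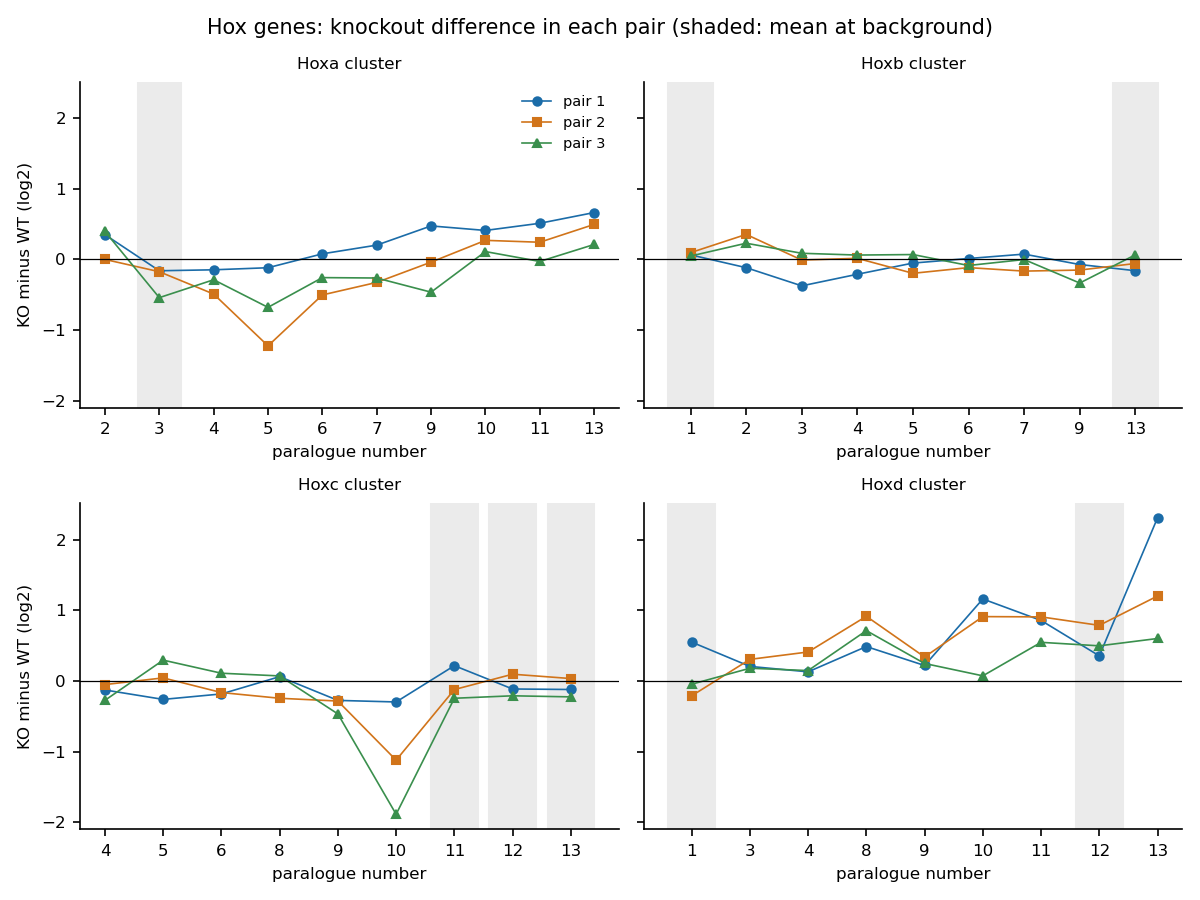
Knockout minus wild-type difference (log2) in each pair for the Hox genes measured, by cluster and paralogue number, with shading where the mean signal is at background. In Hoxd all but Hoxd1 lie above 0 in every pair, Hoxa10 and Hoxa13 lie above and Hoxa3 to Hoxa5 below in every pair, and Hoxc10 stands furthest below 0 in pairs 2 and 3.

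Among 47 genes of limb, face and trunk patterning, 12 were higher and 4 lower in all 3 pairs (25.5% and 8.51%, against 12.61% and 12.49% of all probe sets), with a median of 0.03. Beside Alx1, the largest difference was in Pax3, a factor of somite and neural crest, which stood at 7.39, 6.14 and 5.46 in wild type and 5.11, 5.20 and 5.09 in knockout (−1.20 ± 0.30). Pax3 was near background in all knockout cultures, while its wild-type level differed between cultures. The T-box gene Tbx3 was lower (−0.28), and its relatives Tbx5 (0.46), of forelimb, and Tbx15 (0.28) were higher. The Iroquois genes Irx1 (0.30), Irx2 (0.33), Irx3 (0.34) and Irx5 (0.27) were each higher in all 3 pairs, as were Dlx5 (0.35), Lhx9 (0.41) and Foxf2 (0.28). Fgf10, the limb and lung growth factor made by mesenchyme, stood at 5.76, 6.73 and 6.44 in wild type and 5.54, 5.24 and 5.28 in knockout (−0.96 ± 0.21). The groups did not overlap, but pair 1 differed by only −0.22. None of these patterning genes except Alx1 and Zic1 was a variance-trend call.

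Extracellular matrix genes, the main product of fibroblasts, held some of the largest single differences. Lum, the collagen-binding proteoglycan lumican, stood at 8.20, 8.23 and 5.62 in wild type and 9.03, 10.09 and 6.56 in knockout (1.21 ± 0.18). Pair 3 was lower as a whole, and in every pair the knockout was higher. Tnn, tenascin-N, went the other way with 10.37, 8.99 and 7.44 in wild type and 7.89, 8.43 and 6.21 in knockout (−1.42 ± 0.30). Of 38 matrix glycoproteins and proteoglycans, 9 were higher and 7 lower in all 3 pairs (23.7% and 18.4%, against 12.61% and 12.49% of all probe sets), with a median of 0.00. Smoc2, a SPARC-family calcium-binding protein, stood at 7.07, 7.35 and 7.27 in wild type and 7.46, 7.82 and 7.70 in knockout (0.43 ± 0.07), without overlap. Spon2 was higher by 0.56 ± 0.10, also without overlap, and Fbn2, fibrillin 2, by 0.41. Of 26 collagen genes, 7 were higher and 5 lower (26.9% and 19.2%), including Col10a1 (0.76 ± 0.21, though near 0 in pair 3), Col6a2 (0.30) and Col6a1 (0.25) on the higher side and Col14a1 (−0.37), Col4a1 (−0.26) and Col4a2 (−0.23) on the lower. The gelatinase Mmp9 (−0.85 ± 0.16) and the macrophage elastase Mmp12 (−0.44 ± 0.10) were lower in all 3 pairs. Mmp3, stromelysin, averaged 0.92 ± 0.32, of which pair 1 held most (2.10, against 0.49 and 0.17).

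Signalling lists differed in how their members leaned. Dkk2, a secreted Wnt modulator, stood at 6.89, 6.85 and 6.35 in wild type and 7.17, 7.41 and 7.02 in knockout (0.51 ± 0.09). The R-spondin receptor Lgr5 was higher by 0.81 ± 0.16, but both cultures of pair 3 were below background, so its direction rests on pairs 1 and 2. The R-spondin Rspo2 was lower (−0.58 ± 0.13) in all 3 pairs, and the Wnt antagonist Sfrp1 was higher by 0.31 ± 0.07. Over 35 Wnt ligands, receptors and modulators, 2 were higher and 4 lower in all 3 pairs (5.71% and 11.4%, against 12.61% and 12.49% of all probe sets). Of 36 TGF-beta and BMP genes, 4 were higher and 13 lower (11.1% and 36.1%), with a median of −0.08. The lower members included the activin subunit Inhba (−0.39 ± 0.09), the activin antagonist Fst (−0.26), the ligand Tgfb2 (−0.30), the latency protein Ltbp2 (−0.24) and the target Id3 (−0.23). Smooth muscle genes, which myofibroblasts also express, were 0 higher and 8 lower of 15 (53.3% lower, median −0.12), among them Myh11 (−0.50), Lmod1 (−0.27) and Cnn1 (−0.20). Limma's adjusted p for the 4 smooth muscle members named by the rule ran from 0.607 to 0.865. In the skeletal muscle marker list 0 were higher and 2 lower of 16, about the 12.49% lower among all probe sets. Its median was −0.06, with 0.03 in pair 1, −0.06 in pair 2 and −0.10 in pair 3. The part of skeletal muscle cells in the smooth muscle differences was not tested.

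Interferon-stimulated genes, which respond to viral RNA or DNA sensing, were lower in more members than higher. Of 24 measured, 14 were lower and 1 higher in all 3 pairs, against 12.49% and 12.61% of all probe sets, and the list median was −0.21 (−0.26, −0.10 and −0.21 by pair). Ifit1, an inhibitor of foreign RNA translation, stood at 6.74, 8.82 and 5.60 in wild type and 6.46, 8.55 and 5.22 in knockout (−0.31 ± 0.07). The pair means ranged over 3.27, far more than the knockout difference. Usp18 (−0.36 ± 0.08), Irf7 (−0.34 ± 0.08) and Oasl2 (−0.34 ± 0.09) showed the same layout. No measured member reached the threshold, with limma adjusted p of 0.487 for Ifit1. Gbp2, an interferon-induced GTPase of the list, was left out of the counts because its probe set also names Gbp2b. That probe set, Gbp2;Gbp2b, stood at 7.86, 8.71 and 7.06 in wild type and 7.26, 8.19 and 6.51 in knockout (−0.56 ± 0.07, limma adjusted p = 0.12) and was a variance-trend call (adjusted p = 0.0188). The mean over the list was 6.66, 7.61 and 6.16 in wild type and 6.44, 7.52 and 5.95 in knockout, so both cultures of pair 2 were high. The macrophage marker mean given above was lower in knockout in pairs 1 and 3 and higher in pair 2, while the interferon list was lower in all 3 pairs; the part of macrophage content was not tested. Macrophage markers themselves were 0 higher and 1 lower (Lyz2) in all 3 pairs, with list medians of −0.33, 0.21 and −0.34 by pair. In the NF-kB list, Lcn2, the acute-phase lipocalin, stood at 4.91, 8.36 and 6.76 in wild type and 4.49, 6.73 and 5.39 in knockout (−1.14 ± 0.20), with both cultures of pair 1 below background, whereas Ptx3 was higher by 0.39.

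Genes of telomeres and of the DNA damage response, the pathways nearest to telomerase, showed small differences. Among 16 telomerase subunit and assembly genes, 5 were higher and 2 lower in all 3 pairs, against 12.61% and 12.49% of all probe sets; after Tert the lowest p was that of Nop10, a component of the dyskerin complex (0.19 ± 0.08). Among 17 genes of shelterin, which coats telomeres, and of the CST complex, 4 were higher (23.5%) and none lower. Zbtb48, a telomere-binding zinc-finger protein, stood at 5.29, 5.27 and 5.16 in wild type and 5.47, 5.40 and 5.41 in knockout (0.19 ± 0.07) without overlap. The shelterin proteins Pot1a (0.12) and Pot1b (0.13) were slightly higher in all 3 pairs, and Terf1 differed in direction between pairs. Of 32 DNA damage signalling and repair genes, 13 were higher (40.6%) and 1 lower, with a median of 0.05 (0.09, 0.05 and 0.03 by pair). The Fanconi anaemia protein Fancd2 (0.20 ± 0.07), the helicase Blm (0.19 ± 0.07), Xrcc5, the large Ku subunit (0.20 ± 0.08), and the single-strand break repair protein Xrcc1 (0.17 ± 0.07) had the smallest p. None approached the threshold, with limma adjusted p from 0.829 to 0.888. Of 24 mitotic genes 7 were higher (29.2%) and 0 lower (median 0.06), and of 27 replication and E2F genes 9 were higher and 2 lower (33.3% and 7.41%, median 0.05). Of 23 p53 pathway genes 4 were higher and 4 lower (17.4% each): Gadd45a (0.20) and Btg2 (0.17) stood higher, and the p53 inhibitor Mdm2 (−0.14) and the death receptor Fas (−0.27) lower. Of 23 CDK inhibitor and senescence genes 3 were higher and 5 lower (21.7% lower), including Cdkn1c, encoding p57 (0.30 ± 0.08), and the chemokine Cxcl12 (−0.24 ± 0.07). The polycomb gene Cbx7, a repressor of the Ink4a locus, was lower by 0.22 without overlap, with knockout cultures 2 and 3 below background.

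Metabolic and stress lists lay close to 0. The 22 cholesterol and fatty acid synthesis genes were 7 higher and 0 lower in all 3 pairs (31.8% higher, against 12.61% of all probe sets, median 0.05), with Lss, lanosterol synthase (0.24 ± 0.08), and Cyp51, the sterol demethylase (0.20 ± 0.08), in front. The 27 Myc target and ribosome biogenesis genes were 3 higher (11.1%) and 0 lower, and none had an unadjusted p below 0.05. Of 47 subunits of respiratory complexes I to III, 3 were higher and 7 lower (6.38% and 14.9%, against 12.61% and 12.49%); Ndufs6 and Sdha, which had the smallest p, are neighbours of Tert and are described with them. Of 26 NRF2 targets and antioxidant enzymes 0 were higher and 5 lower (19.2%), including the glutathione transferase Gstm1 (−0.36 ± 0.08). Of 19 imprinted genes, 4 were higher (21.1%), with Mest (0.64 ± 0.11), Plagl1 (0.40 ± 0.11) and Meg3 (0.28 ± 0.08), and 3 lower (15.8%).

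**Figure D4:**
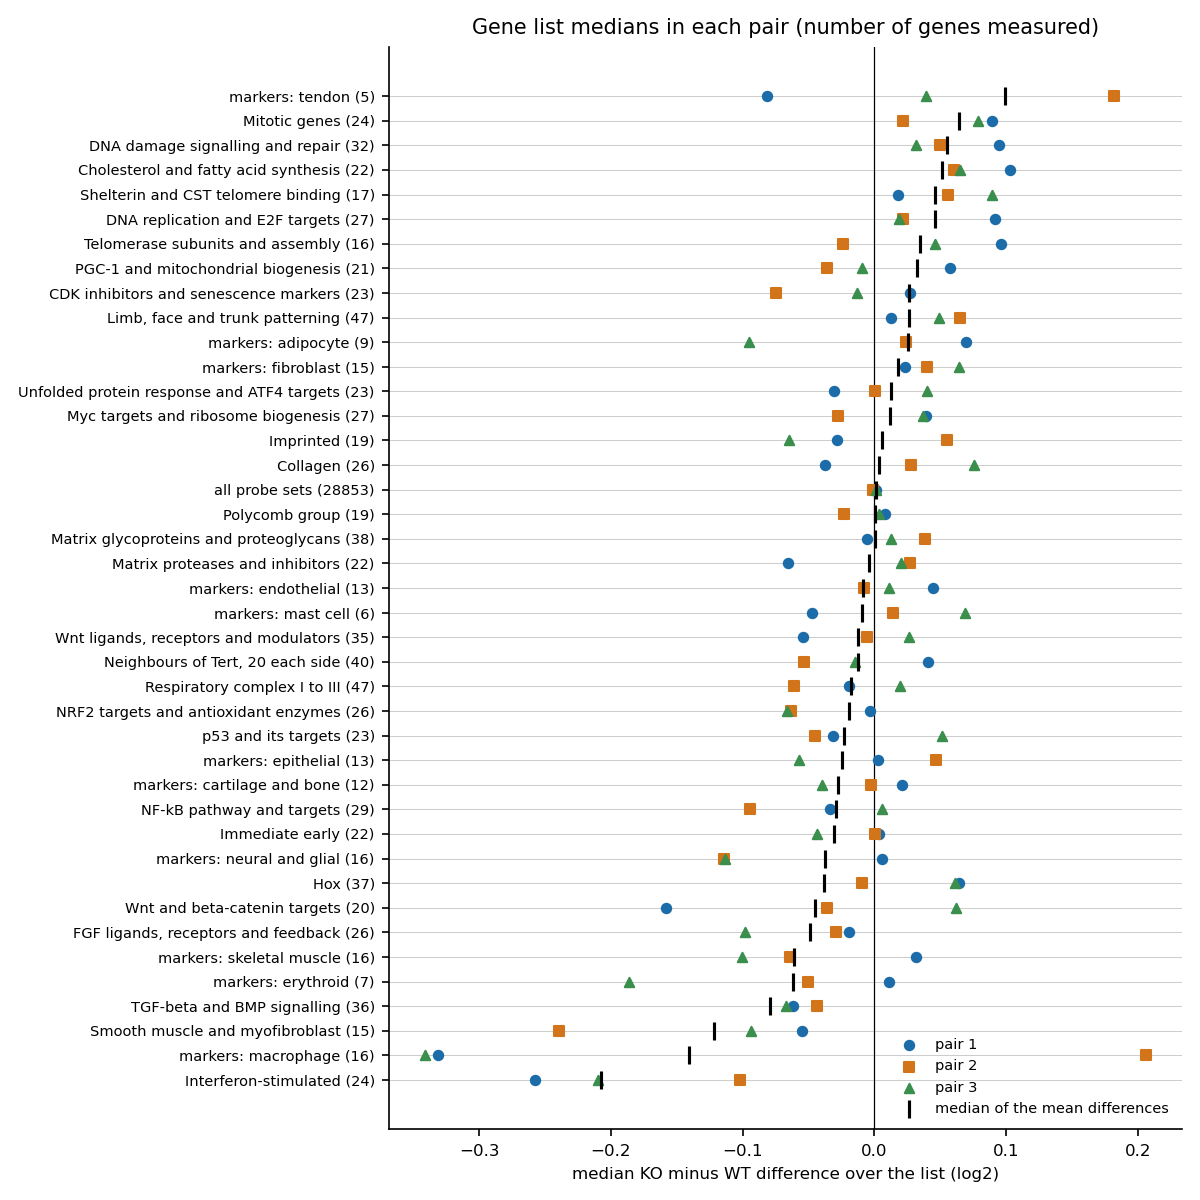
Median knockout minus wild-type difference (log2) over each gene list in each pair (coloured symbols) and the median of the 3-pair means (black bar), sorted by the latter, with the number of genes measured in brackets. Most lists lie within 0.1 of 0, interferon-stimulated genes are below 0 in every pair and the macrophage markers change sign in pair 2.

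Neighbours of Tert were examined because a knockout allele carries flanking chromosome with it. Of the 40 nearest measured genes, 20 on each side in gene order, 6 were higher and 8 lower in all 3 pairs, against 12.61% and 12.49% of all probe sets. Ndufs6, a complex I subunit 5 genes from Tert, stood at 6.84, 6.85 and 6.89 in wild type and 6.64, 6.64 and 6.46 in knockout (−0.28 ± 0.08). Wild-type cultures lay close together and all knockout cultures were lower. Sdha, the catalytic subunit of succinate dehydrogenase, was lower by 0.27 ± 0.09 and the peptidase Erap1 by 0.30 ± 0.07. The Iroquois genes Irx1 (0.30) and Irx2 (0.33), given above with the patterning genes, also lie in this window, on the side of Ndufs6. Ahrr, the repressor of the aryl hydrocarbon receptor, 13 genes away on the other side from Ndufs6, stood at 4.43, 4.39 and 4.57 in wild type and 4.80, 4.81 and 4.78 in knockout (0.33 ± 0.07), which is below background throughout. In the mTR line Ndufs6 (−0.19), Irx1 (0.78) and Irx2 (0.53) differed in the same direction as here. Sdha (0.05 ± 0.08) and Erap1 (0.18) showed no clear direction there, so a reversal between the lines was not shown for either. Ahrr averaged −0.62 there, but all its mTERT signals lay below background, so its directions in the lines cannot be compared. With 100 genes on each side, 30 were higher and 32 lower of 200 and the median was 0.01. In that wider window Arsk, a sulfatase 28 genes from Tert chosen after its values were seen, stood at 7.17, 7.33 and 6.96 in wild type and 6.91, 6.28 and 6.23 in knockout (−0.68 ± 0.14). Knockout cultures 2 and 3 were far lower and culture 1 only slightly. Nnt, the mitochondrial transhydrogenase, 211 genes from Tert on the same chromosome and also chosen after its values were seen, showed the same split. Nnt stood at 9.28, 9.16 and 9.26 in wild type, at 9.25 in knockout culture 1, and at 8.36 and 8.41 in knockout cultures 2 and 3. Knockout culture 1 thus lay with the wild types, and the 6 mTR cultures, at 8.40 to 8.59, lay with knockout cultures 2 and 3. As background, the C57BL/6J strain carries a deletion within Nnt that related strains lack; genotypes at Nnt were not tested.

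**Figure D5:**
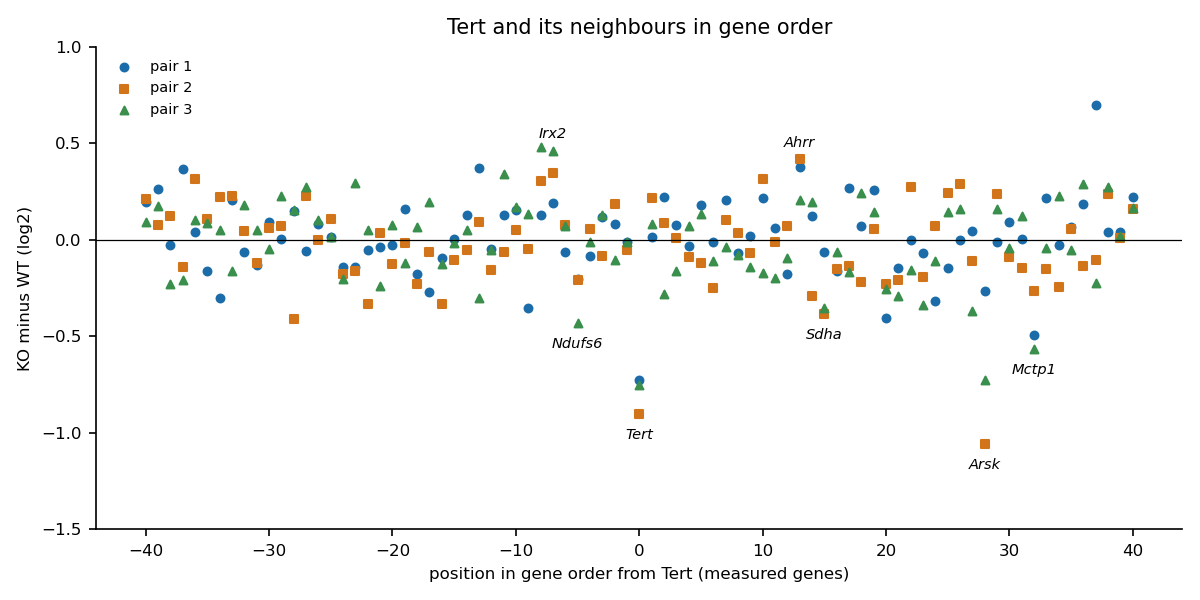
Knockout minus wild-type difference (log2) in each pair for Tert and the 40 measured genes on each side of it, by position in gene order. Tert and Arsk reach furthest below 0, Arsk with pair 1 well above pairs 2 and 3, and most neighbours scatter around 0.

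The same differences were set beside those of the mTR line, which shares no culture with these. A test of the difference of the knockout effects took the mTERT pairs as a block and the mTR cultures as unpaired, with a shared variance. Differences in level between mTR sets thus enter that variance and the errors given below. It called 0 of 28853 probe sets (limma, 0% called), with 1140 (3.95%) at an unadjusted p below 0.05. With the replicate number as a block in both lines the count of calls was also 0. In the mTR line Tert stood at 5.79, 5.70 and 5.66 with the RNA gene present and 5.80, 5.69 and 5.80 without it. Its knockout effects differed by −0.85 between the lines (limma adjusted p = 0.079). All 6 mTR cultures lay near the mTERT WT level. Alx1 averaged −1.11 ± 0.39 in the mTR line, and its effects differed by −0.03 ± 0.55, an interval too wide to say that they were alike. Gfra1 averaged 0.67 ± 0.41 there. Hoxd13 averaged −1.43 ± 0.54 and Hoxd11 −0.74 ± 0.23 in the mTR line, opposite in sign to the mTERT line, with effect differences of 2.80 ± 0.76 and 1.51 ± 0.32 (adjusted p = 0.998 for each). Smoc2 likewise averaged −1.20 ± 0.17, with an effect difference of 1.63 ± 0.24 (adjusted p = 0.371).

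More probe sets were called between pairs than between genotypes. The pair terms hold litter together with anything else that same-numbered cultures shared. Their test spans 3 pairs and the knockout test a single difference, so the counts are not like for like. Limma's test for any difference between the 3 pairs called 2202 probe sets (7.63%), against 0 for the knockout. The 12 strongest above background were Ifit1, Gbp3, Gm4951, Sfrp1, Agtr2, Iigp1, C1s1, Igsf10, Apoe, Ccl2, Usp18 and Ifit3. Agtr2, an angiotensin receptor of fetal mesenchyme, stood at 7.45, 7.45 and 4.67 in wild type and 8.14, 7.86 and 4.88 in knockout, so both cultures of pair 3 were at background. Apoe, abundant in macrophages, stood at 8.56, 9.99 and 11.28 in wild type and 8.15, 9.86 and 10.84 in knockout, highest in pair 3. Ccl2, a monocyte chemokine, stood at 8.23, 10.05 and 6.90 in wild type and 7.79, 9.75 and 6.91 in knockout, highest in pair 2. All 16 macrophage markers and 22 of 24 interferon-stimulated genes differed between pairs in this test. So did 28 of the 34 variance-trend calls, but these were selected on the same arrays partly for a small residual spread. The test between pairs divides by that spread too, so their share is not a separate result.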

How the data were processed

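RNA of 6 fibroblast cultures had been hybridised to 1-colour Affymetrix arrays. The authors deposited log2 signals per probe set; GCOS 1.4, PLIER and Affymetrix Expression Console are named in the submitters' processing notes, and no source used here states how arrays were normalized. The deposited values were used unchanged: array quantiles differed by at most 0.0577. A model with pair and genotype was fitted to all 28853 probe sets with limma 3.58.1 in R 4.3.3 (2 residual and 5.44 prior degrees of freedom), with Benjamini-Hochberg adjustment and a 5% threshold, and was tested on simulated data. p-values of this paired fit set the knockout difference against its spread between pairs, combined with limma's prior variance. The standard errors after ± rest on the same combined variance. Differences in level that the cultures of a pair shared do not enter that spread. The number of pairs limits precision.

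The series' design text gives wild type and knockout of a set as littermates, and cultures with the same number were taken as a set. Deviations from the group means correlated at 0.561, 0.625 and 0.678 for same-numbered cultures. Those of differently numbered cultures correlated at −0.452 to −0.158. Deviations cancel within a group, so positive values for same-numbered cultures push these towards negative, and they are not separate support. The pairing was kept.

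Genes were named by the platform annotation (21789 probe sets with 1 symbol, 1621 with several, 5443 with none), each by its brightest probe set. Of 921 list entries 871 were measured, 7 through a synonym, and 50 were not analysed here. Named genes were Tert, Terc, the 12 highest and 12 lowest test statistics and, among same-direction genes with unadjusted p below 0.05, the 12 largest and 12 smallest differences, up to 4 members of each list by smallest p, and the 12 strongest between pairs. Members and lists were chosen with earlier results of these data known. Promoter sequences come from RefSeq, GRCm38.p6.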

Additional observations from a re-analysis of the deposited data

How the results depend on the processing

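Counts of calls depended on how the variance was estimated. Against 0 calls in the paired limma fit, the trend and robust variance gave 16 higher and 18 lower, trended variance alone, chosen after seeing the data, 1 higher and 6 lower, and testing only probe sets with 1 gene symbol (fewer tested) 2 higher and 4 lower. Fitting all 12 arrays gave 0 higher and 1 lower (Tert), with or without the block. Leaving out 1 pair at a time gave 0 to 91 higher and 0 to 138 lower, all from leaving out pair 1 (90 higher and 89 lower when a repeated profile is counted once, 50 of the lower calls being 1 repeated signal); the cause was not tested. Tert itself stayed between −0.83 and −0.74 without a pair; its adjusted p passed the threshold with trend and robust variance (0.0105), trended variance (0.0404), 1 gene symbol (0.046), all 12 arrays with the replicate block (0.0187) or without it (0.0352), each at −0.79, and without pair 1 (−0.83, 0.00322). Without the replicate block the 6 arrays gave 0 calls, 495 probe sets at an unadjusted p below 0.05 and a smallest adjusted p of 1; with the pairing as a random block (correlation 0.370) the smallest was 0.256.

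Genes near 0 changed sign when 1 pair was left out: Terc (−0.13 to 0.011, positive without pair 2), Terf1 (−0.021 to 0.30, negative without pair 3), Rrs1 (−0.19 to 0.002, positive without pair 2), Tnmd (−0.076 to 0.43, negative without pair 2 and, at −0.059, without pair 3), Cidec (−0.098 to 0.0035, positive without pair 1), Fabp4 (−0.13 to 0.24, negative without pair 1), Thbs4 (−0.012 to 0.36, negative without pair 1) and Mcpt4 (−0.10 to 0.077, positive without pair 1). Of the values of named genes under the alternatives, 2970 kept direction and side of the threshold, 86 newly passed it and 9 changed sign. Counts between pairs ran from 2242 to 3242 under the alternatives, within 1.5 times 2202, and no alternative gave a call for the difference between lines. Signals at background, such as Ahrr and Terc, have no usable fold.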

Other observations

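Some genes differed strongly in pairs 2 and 3 and in the opposite direction, or not at all, in pair 1. They were chosen after their values were seen, and none carries a test of its own. Upk1b, a uroplakin of urothelium and mesothelium, stood at 5.14, 6.75 and 6.12 in wild type and 6.23, 5.10 and 4.85 in knockout. Its partner Upk3b stood at 5.11, 6.05 and 5.66 in wild type and 5.66, 5.06 and 4.97 in knockout, the same layout at a lower signal. Acan, the cartilage proteoglycan aggrecan, was the reverse, with 5.46, 4.74 and 4.96 in wild type and 4.57, 5.84 and 6.39 in knockout. Aldh1a1, a retinaldehyde dehydrogenase, stood at 6.47, 8.14 and 7.98 in wild type and 6.50, 6.99 and 6.49 in knockout, with no gap in pair 1.

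Capn6, a calpain without protease activity, stood at 8.39, 7.33 and 7.21 in wild type and 8.62, 8.52 and 8.33 in knockout. Rtl3, a gene derived from a retrotransposon, was higher in all 3 pairs with 6.49, 5.57 and 5.14 in wild type and 7.14, 6.94 and 5.83 in knockout. Mcpt8, a mast cell and basophil protease, stood at 4.98, 5.42 and 5.59 in wild type and 6.47, 6.50 and 6.04 in knockout (1.01 ± 0.17, at least 0.98 with wild-type culture 1 at background), while all 6 mast cell markers were at background. The neuropeptide receptor Npy1r was lower, with 6.82, 7.52 and 7.94 in wild type and 6.46, 6.23 and 7.07 in knockout. None of these 4 genes passed the 5% threshold in the paired limma fit (adjusted p 0.238 for Rtl3 to 0.424 for Capn6).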
